A study of Homo sapiens with 6 samples.

Results

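The core of the Hippo pathway was followed across 6 RNA-seq libraries of WM164, a human melanoma cell line with a BRAF V600E mutation. The members were taken from the deposited gene table by symbol, and all 10 of them were found among its 60504 genes. They are the coactivators YAP1 and WWTR1 (the gene of the protein TAZ), the DNA-binding factors TEAD1, TEAD2, TEAD3 and TEAD4, the kinases STK4 (MST1), STK3 (MST2) and LATS1, and the adaptor SAV1. The EV group held 3 libraries from cells with an empty expression vector. The HDAC8 group held 3 libraries from cells with an expression vector for HDAC8, a class I histone deacetylase. Per the methods of the study, WM164 cells were transfected with the plasmid and both groups were kept in hygromycin, so that all libraries share the drug, the plasmid backbone and the BRAF mutation. The labels number biological replicates without naming separate cultures, and the study leaves its sequencing assays out of those it says were repeated independently. The p-values then measure only the spread between these libraries, which may be technical. The comparison asked whether introduction of HDAC8 changed the transcripts of the pathway that controls YAP and TAZ.

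In the Hippo pathway, the MST kinases, held by SAV1, phosphorylate and activate the LATS kinases. LATS kinases in turn phosphorylate YAP and TAZ, which are then kept in the cytoplasm or degraded. Unphosphorylated YAP and TAZ enter the nucleus, bind TEAD factors and switch on genes of growth, adhesion and migration. In melanoma, YAP and TEAD activity is known to accompany undifferentiated, invasive cell states. Much of this control acts on the proteins, which RNA-seq does not measure.

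Total counts ran from 34741092 to 42041453 per library and overlapped between the groups. The lowest member count in any library was 320, so that every member was measured well above the floor of 3 counts. The HDAC8 transcript itself had normalized counts (counts divided by a library size factor) of 383.8, 404.4 and 478.8 in EV and of 484.8, 445.5 and 473.7 in the libraries labelled HDAC8, and was not called (DESeq2 adjusted p = 0.856). The labels are thus not checked by this transcript, and directions are given from EV to the libraries labelled HDAC8. Mitochondrially encoded transcripts took 9.66% to 12.8% of the counts in EV and 4.46% to 7.94% in the libraries labelled HDAC8, with HDAC8 replicate 1 lowest, and the part of this difference in any member's value was not tested. Of the 6 melanocyte lineage markers examined (MLANA, PMEL, TYR, DCT, MITF and SOX10), every library held all 6, with a summed level of 243681.5 to 327471.6 normalized counts in EV and of 136367.6 to 181340.4 in the libraries labelled HDAC8. PMEL gave most of this sum, with 169800.1 to 247771.6 in EV and 89540.4 to 147944.3 in the libraries labelled HDAC8. Of the markers of other cell types, DCN (fibroblast), CDH5 (endothelial) and EPCAM (epithelial) were at 0 in all libraries and PTPRC (leukocyte) was at or under the floor. The summed level was 2375.0 to 2775.6 against 1381.8 to 2393.4 normalized counts for the 3 fibroblast markers, of which LUM gave the most, 97.5 to 202.9 against 114.3 to 218.0 for the 3 endothelial ones, and 38.3 to 86.7 against 0 to 41.0 for the 3 epithelial ones. DESeq2 called 4 of the 6 melanocyte markers lower (MLANA, PMEL, TYR and DCT), while MITF and SOX10 were not called (DESeq2 adjusted p = 0.544 and 0.211). It called 1 of the 3 fibroblast markers (PDGFRA) higher and the leukocyte marker CD3E (at 0 in EV) higher. The part of these differences in the members' values was not tested. In bulk RNA, fewer cells of a state and less RNA per cell cannot be told apart.

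Promoter sequences are shown for both coactivators, whose transcripts had fold changes of opposite sign, and for LATS1, the kinase that acts on them. The sequences are those of RefSeq (GRCh38.p14), 5′ to 3′ on the strand of the gene, from 250 bases before an annotated start up to the start or to the first base that GENCODE places in an exon of the gene. Capitals mark the core TEAD motif CATTCC or TGANTCA, a loose form of the AP-1 motif that allows any middle base. Each was searched on both strands.
YAP1, chr11:102110197-102110446, plus strand: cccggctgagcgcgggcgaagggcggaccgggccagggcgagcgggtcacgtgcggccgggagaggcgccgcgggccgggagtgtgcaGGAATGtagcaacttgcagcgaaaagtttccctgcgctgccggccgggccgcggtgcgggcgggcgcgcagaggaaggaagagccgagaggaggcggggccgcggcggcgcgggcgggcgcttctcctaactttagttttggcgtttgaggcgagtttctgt
WWTR1, chr3:149658042-149658275, minus strand: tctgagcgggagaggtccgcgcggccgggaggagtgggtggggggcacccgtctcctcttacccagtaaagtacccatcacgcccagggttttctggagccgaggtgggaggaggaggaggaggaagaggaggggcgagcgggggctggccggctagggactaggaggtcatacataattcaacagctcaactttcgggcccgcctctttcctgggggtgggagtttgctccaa
LATS1, chr6:149718106-149718351, minus strand: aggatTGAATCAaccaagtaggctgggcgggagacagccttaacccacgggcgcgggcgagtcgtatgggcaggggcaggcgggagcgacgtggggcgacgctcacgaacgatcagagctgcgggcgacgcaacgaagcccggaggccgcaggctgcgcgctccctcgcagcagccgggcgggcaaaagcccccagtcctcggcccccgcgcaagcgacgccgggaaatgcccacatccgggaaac
The YAP1 window held CATTCC on the opposite strand, at position -162 counted from the start. The LATS1 window shown held TGANTCA at position -245, with A as the middle base, and that of an alternative LATS1 start held neither motif. RefSeq windows of 300 bases were matched for 7 of the 10 members, and TEAD1, TEAD4 and STK3 had no match. Of these 7, 1 held CATTCC and 1 held TGANTCA. In all 35116 promoter windows of that length, CATTCC stood in 14.0% and TGANTCA in 7.71%. The YAP1 window was 70.7% G and C, the WWTR1 window shown was 63% and an alternative WWTR1 start had 37%, beside a median of 58.7% over all windows. These matches describe the letters of the windows, and no binding was measured in these libraries.

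None of the 10 members was called changed. A call needed a DESeq2 adjusted p under 0.05 together with a log2 fold change no smaller than 0.58 in either direction. The methods of the study name both thresholds, though a figure legend there describes a p without correction for multiple testing. By this rule 0 members were higher and 0 lower, whereas over all 21021 genes with an adjusted p 11.0% were called, 5.57% higher and 5.44% lower. Without the fold minimum DESeq2 likewise called 0 members at an adjusted p under 0.05, against 13.0% of genes. At an unadjusted p under 0.05, 3 members passed (WWTR1, TEAD1 and STK3), where 23.7% of all genes did. The quasi-likelihood test of edgeR called 0 members (9.30% of all genes) and had the same number, 3, at an unadjusted p under 0.05. The median log2 fold change over the members was -0.05, and the median of its size was 0.17, against 0.45 for all genes with an adjusted p and 0.30 for the 10228 of them whose mean normalized count was 300 or more.

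The 95% intervals carry no correction for multiple testing, unlike the adjusted p. For 6 members the 95% interval of the log2 fold change lay within 0.58 of 0 in both directions. These were YAP1, TEAD2, TEAD4, STK4, SAV1 and LATS1. For WWTR1, TEAD1, TEAD3 and STK3 the interval reached past 0.58 on the side of the estimate, so that these data do not set a change of that size aside. The 2 groups did not overlap for 3 members, WWTR1 (higher) and TEAD1 and TEAD3 (lower), where 29.1% of all genes had groups that did not overlap, 13.8% with the higher level and 15.2% with the lower in the libraries labelled HDAC8.

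**Figure D1:**
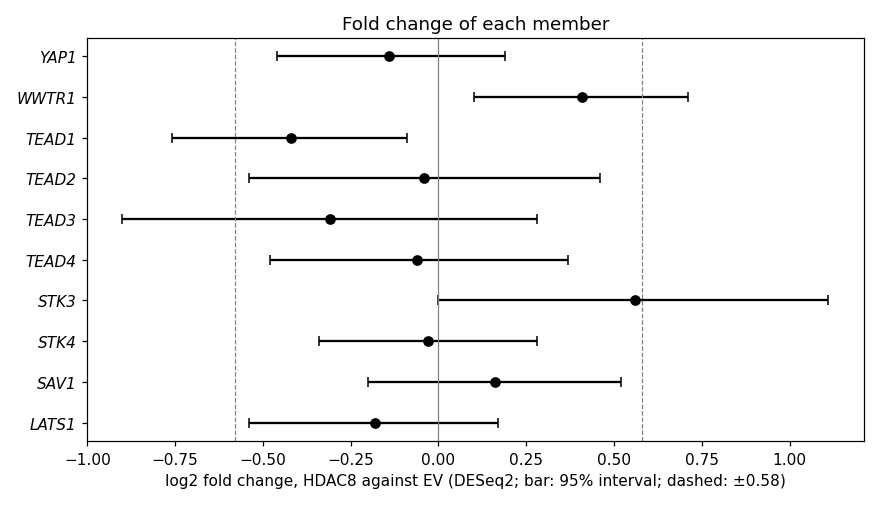
DESeq2 log2 fold change of each member in the libraries labelled HDAC8 against EV, with its 95% interval and dashed lines at 0.58 in either direction. Points run from -0.42 (TEAD1) to 0.56 (STK3), and the intervals of WWTR1, TEAD1, TEAD3 and STK3 cross a dashed line.

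Among the coactivators, WWTR1 was by far the more abundant transcript and had the higher level in the libraries labelled HDAC8. WWTR1 (ENSG00000018408, GRCh38 chromosome 3, 149517235 to 149736714, minus strand) was counted at 15920.9, 15791.9 and 14672.5 (normalized) in EV and of 16023.4, 23956.9 and 21468.7 in the libraries labelled HDAC8. HDAC8 replicate 1 stood just above the highest EV library, while the other 2 stood clearly above it. The mean was 15461.8 ± 686.6 (SD, n = 3) against 20483.0 ± 4057.6 (SD, n = 3), a 1.32-fold difference with a 95% interval of 1.07 to 1.64 (log2 fold change 0.41 with an SE of 0.16, DESeq2 adjusted p = 0.0631). The value moved with single libraries in both directions. Without HDAC8 replicate 1 the log2 fold change was 0.55 (DESeq2 adjusted p = 3.65e-07), still under the fold minimum. Without HDAC8 replicate 2 it was 0.28 (DESeq2 adjusted p = 0.277). With size factors from total counts and all libraries it was 0.44 (DESeq2 adjusted p = 0.0263).

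YAP1 (ENSG00000137693, chromosome 11, 102110447 to 102233424, plus strand) was, like WWTR1, not called. Its normalized counts were 4482.8, 3631.1 and 4603.5 in EV and 3296.3, 4206.2 and 4059.6 in the libraries labelled HDAC8. HDAC8 replicate 1 was again the lowest of its group, and the groups overlapped. The fold was 0.909 (95% interval 0.726 to 1.14, log2 fold change -0.14, DESeq2 adjusted p = 0.73).

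The balance between both coactivators was compared within each library, which removes the size factor. The log2 ratio of WWTR1 to YAP1 counts was 1.83, 2.12 and 1.67 in EV and 2.28, 2.51 and 2.40 in the libraries labelled HDAC8. Every library labelled HDAC8 had a higher ratio than every EV library. The mean was 1.87 ± 0.23 in EV and 2.40 ± 0.11 in the libraries labelled HDAC8 (SD, n = 3), a difference of 0.52 on the log2 scale or 1.44-fold in the ratio (exact two-sided permutation test, p = 0.1, adjusted p = 0.3 over 6 ratios). With 3 libraries against 3, a p of 0.1 is the smallest this test can give, so that the design cannot pass 0.05. Per kilobase of transcript, WWTR1 made up 73.4% ± 3.04 of the summed YAP1 and WWTR1 level in EV and 79.9% ± 1.27 in the libraries labelled HDAC8 (SD, n = 3).

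**Figure D2:**
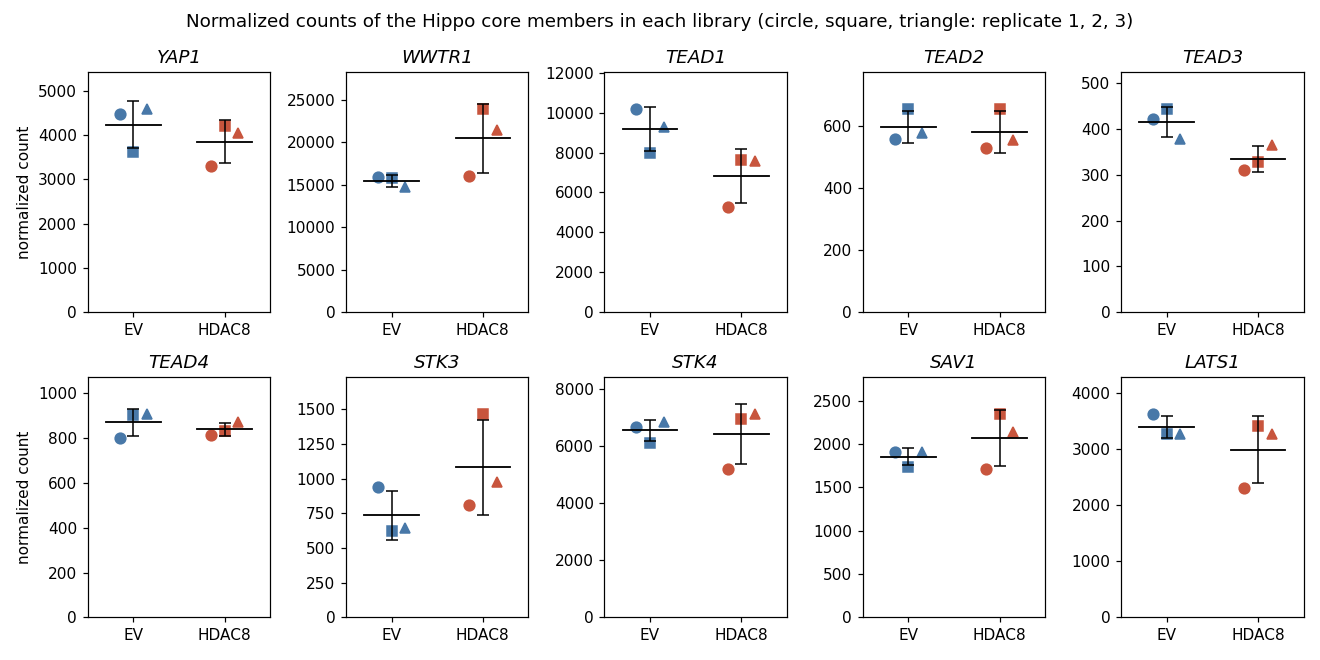
Normalized counts of each member in the 3 EV and the 3 HDAC8 libraries, with a line at the mean and bars of 1 SD (each panel has its own axis from 0). WWTR1, TEAD1 and TEAD3 are the panels in which the groups do not overlap.

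The TEAD factors bind DNA and depend on YAP or TAZ to activate transcription. All 4 had log2 fold changes below 0, from -0.42 to -0.04, and none was called. TEAD1 (ENSG00000187079, chromosome 11, 12674421 to 12944737, plus strand), the most abundant of them, had normalized counts of 10210.2, 8002.9 and 9277.9 in EV and of 5292.1, 7633.0 and 7567.1 in the libraries labelled HDAC8. All 3 libraries labelled HDAC8 were below the lowest EV library, HDAC8 replicate 1 by the widest margin. The mean was 9163.7 ± 1108.1 against 6830.7 ± 1332.9 (SD, n = 3), a fold of 0.745 with a 95% interval of 0.592 to 0.939 (log2 fold change -0.42 with an SE of 0.17, DESeq2 adjusted p = 0.0813). Without HDAC8 replicate 1 the log2 fold change was -0.27 (DESeq2 adjusted p = 0.119).

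TEAD3 (ENSG00000007866, chromosome 6, 35473597 to 35497079, minus strand) was the least abundant TEAD. Its normalized counts of 422.6, 444.6 and 378.3 in EV were all above the 310.4, 327.7 and 365.9 of the libraries labelled HDAC8. The gap between the groups was small and the interval wide (fold 0.806, 95% interval 0.534 to 1.22, DESeq2 adjusted p = 0.631).

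TEAD2 and TEAD4 did not separate the groups. TEAD2 (chromosome 19, 49340595 to 49362457, minus strand) had 555.8, 653.8 and 576.3 normalized counts in EV and 527.6, 655.5 and 555.4 in the libraries labelled HDAC8, a fold of 0.973 (95% interval 0.686 to 1.38). TEAD2 overlaps CD37 on the opposite strand, which had 68.6 to 184.0 normalized counts, and counting by strand is not stated. TEAD4 (chromosome 12, 2959330 to 3040676, plus strand) had 802.2, 905.0 and 909.3 in EV and 812.3, 832.6 and 872.3 in the libraries labelled HDAC8, a fold of 0.962 (95% interval 0.717 to 1.29). TEAD4 was the member with the smallest spread among the libraries labelled HDAC8, with a coefficient of variation of 3.63%.

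The other TEADs were also set against TEAD4 within the same library, where the test likewise cannot give a p under 0.1. The difference of the log2 ratio was -0.38 for TEAD1 (exact two-sided permutation test, p = 0.2), 0.01 for TEAD2 (p = 0.8) and -0.26 for TEAD3 (p = 0.2), with adjusted p of 0.3, 0.8 and 0.3 over the 6 ratios. Per kilobase, TEAD1 held 54.2% ± 4.51 of the summed TEAD level in EV and 48.4% ± 3.99 in the libraries labelled HDAC8 (SD, n = 3), with overlapping groups. TEAD4 followed with 24.4% ± 2.47 and 28.3% ± 2.89, TEAD2 with 12.7% ± 1.61 and 14.9% ± 1.33, and TEAD3 with 8.66% ± 0.92 and 8.41% ± 0.699.

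Coactivator and TEAD transcripts were also set against each other as sums. The summed TEAD level was 1580 ± 61 normalized counts per kilobase in EV and 1310 ± 157 in the libraries labelled HDAC8 (SD, n = 3). The summed YAP1 and WWTR1 level was 2520 ± 81.7 against 3060 ± 562, and here the groups overlapped. The ratio of both sums within a library was 1.60, 1.63 and 1.57 in EV and 2.16, 2.51 and 2.30 in the libraries labelled HDAC8. This ratio was formed after the members' values had been seen and is given as a description with no test. Its groups did not overlap either with the longest annotated transcript as the length (highest EV library 2.12, lowest library labelled HDAC8 2.79) or with the coding length (2.00 and 2.82), both chosen after seeing the data. Other lengths only reweight the same counts, so that they are no independent check of the ratio. It is a ratio of transcripts and not of protein in the nucleus.

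The kinases and their adaptor came next. STK3 (ENSG00000104375, chromosome 8, minus strand) had the largest estimate of all members and the largest spread. It had normalized counts of 940.6, 624.8 and 646.2 in EV and of 810.6, 1467.6 and 972.4 in the libraries labelled HDAC8. EV replicate 1 was above HDAC8 replicate 1, and HDAC8 replicate 2 stood apart as the highest. The mean was 737.2 ± 176.5 against 1083.6 ± 342.3 (SD, n = 3), a 1.47-fold difference (95% interval 1.00 to 2.15, log2 fold change 0.56 with an SE of 0.28, DESeq2 adjusted p = 0.205). Without HDAC8 replicate 2 the log2 fold change was 0.28, and without EV replicate 1 it was 0.77 (DESeq2 adjusted p = 0.647 and 0.123). Without HDAC8 replicate 1 it was 0.73 (DESeq2 adjusted p = 0.0504).

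STK4 (ENSG00000101109, chromosome 20, 44966494 to 45080021, plus strand) is the paralog of STK3 and carried most of the MST transcript. Its normalized counts were 6688.0, 6135.0 and 6864.4 in EV and 5206.6, 6949.9 and 7145.7 in the libraries labelled HDAC8. The libraries labelled HDAC8 lay on both sides of EV, and the fold was 0.98 (95% interval 0.792 to 1.21, DESeq2 adjusted p = 0.963). The log2 ratio of STK3 to STK4 was -3.18 ± 0.31 in EV and -2.60 ± 0.32 in the libraries labelled HDAC8 (SD, n = 3). That difference of 0.58 came with overlapping groups (exact two-sided permutation test, p = 0.2, adjusted p = 0.3).

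SAV1 (ENSG00000151748, chromosome 14, 50632058 to 50668306, minus strand), the adaptor that holds the MST kinases, had normalized counts of 1911.6, 1740.9 and 1907.2 in EV and of 1712.7, 2349.4 and 2143.1 in the libraries labelled HDAC8. HDAC8 replicate 1 was below every EV library, the other 2 were above, and the fold was 1.12 (95% interval 0.868 to 1.43, DESeq2 adjusted p = 0.716). LATS1 (ENSG00000131023, chromosome 6, 149658153 to 149718105, minus strand), which phosphorylates YAP and TAZ, had 3630.3, 3278.1 and 3275.5 in EV and 2301.9, 3408.4 and 3266.9 in the libraries labelled HDAC8. Its only low value was that of HDAC8 replicate 1, and the fold was 0.881 (95% interval 0.689 to 1.13, DESeq2 adjusted p = 0.643).

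LATS2, the paralog of LATS1 and itself a YAP/TEAD target, was not called either. It had 1149.3, 1147.8 and 1138.8 normalized counts in EV and 1306.6, 1087.6 and 1173.9 in the libraries labelled HDAC8 (log2 fold change 0.05, DESeq2 adjusted p = 0.936). The log2 ratio of LATS1 to LATS2 differed by -0.25 between the groups (exact two-sided permutation test, p = 0.4, adjusted p = 0.48). Without HDAC8 replicate 1 that difference was -0.00.

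Within the libraries labelled HDAC8, the members were compared by library. HDAC8 replicate 1 was the lowest of the 3 libraries labelled HDAC8 for all 10 members. Among the 10228 genes with an adjusted p and a mean of 300 or more, that library was the lowest for 48.2%. The median log2 difference between HDAC8 replicate 1 and the mean of the other 2 was -0.41 over the members. Over those genes the median was -0.07, with quartiles of -0.40 and 0.28. By member the difference ran from -0.59 for STK3, -0.54 for LATS1, -0.52 for TEAD1 and -0.50 for WWTR1 to -0.20 for TEAD2, -0.16 for TEAD3 and -0.07 for TEAD4. This library also had the lowest mitochondrial share, 4.46%, and the part of either in the members' values was not tested. The coefficient of variation was larger in the libraries labelled HDAC8 for 9 of 10 members, with a median of 16.1% against 7.54% in EV, while over those genes the medians were 16.5% and 12.3%.

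**Figure D3:**
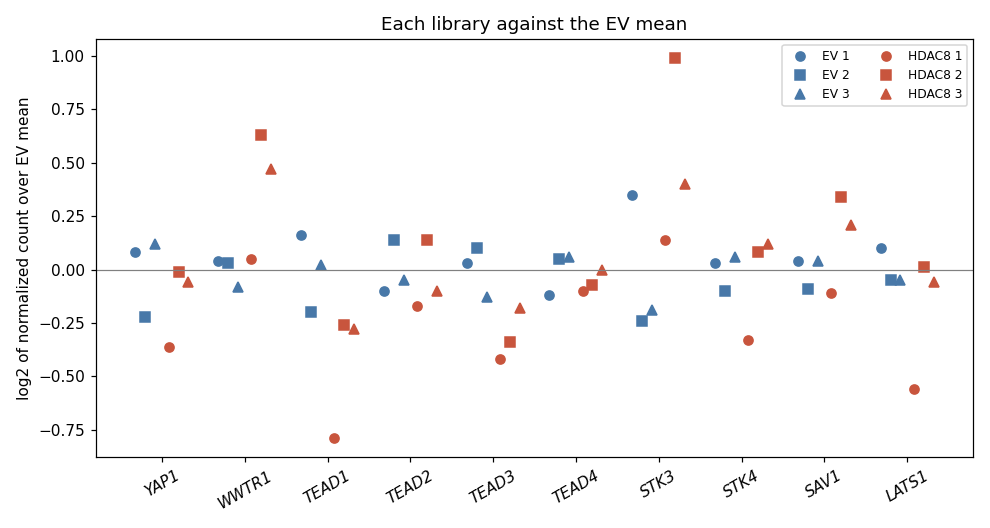
Log2 of each library's normalized count over the EV mean of the same member, with EV libraries in blue and HDAC8 libraries in red (circle, square and triangle for replicates 1, 2 and 3). The red circle (HDAC8 replicate 1) is the lowest red symbol for all 10 members, down to -0.79 for TEAD1.

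The order of levels was read per kilobase of merged exons, since counts grow with transcript length. WWTR1 led in both groups, with 1850 ± 82.2 normalized counts per kilobase in EV and 2450 ± 486 in the libraries labelled HDAC8 (SD, n = 3). TEAD1 (856 ± 104 and 638 ± 125) and YAP1 (672 ± 84 and 611 ± 77.4) followed, and these neighbours overlapped in the libraries labelled HDAC8 but not in EV. LATS1 (400 ± 24), STK4 (396 ± 23) and TEAD4 (383 ± 26.6) could not be ordered in EV, as their ranges overlapped, and SAV1 (331 ± 17.4) was below them. In the libraries labelled HDAC8, STK4 (388 ± 64.4), SAV1 (369 ± 58), TEAD4 (369 ± 13.4) and LATS1 (352 ± 70.9) overlapped from each to the next. TEAD2 (200 ± 17.3 and 194 ± 22.6), TEAD3 (136 ± 11.1 and 110 ± 9.31) and STK3 (58.5 ± 14 and 86 ± 27.2) were the lowest. TEAD3 and STK3 overlapped in the libraries labelled HDAC8. Per kilobase, STK4 carried 87.2% ± 2.45 of the summed STK3 and STK4 level in EV and 82% ± 3.38 in the libraries labelled HDAC8 (SD, n = 3), and LATS1 66.2% ± 1.25 and 62% ± 7.23 of that of LATS1 and LATS2. The order depends on the length taken: with the longest transcript or the coding length 3 of 10 members kept their rank, WWTR1 and TEAD1 at ranks 1 and 2 among them.

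**Figure D4:**
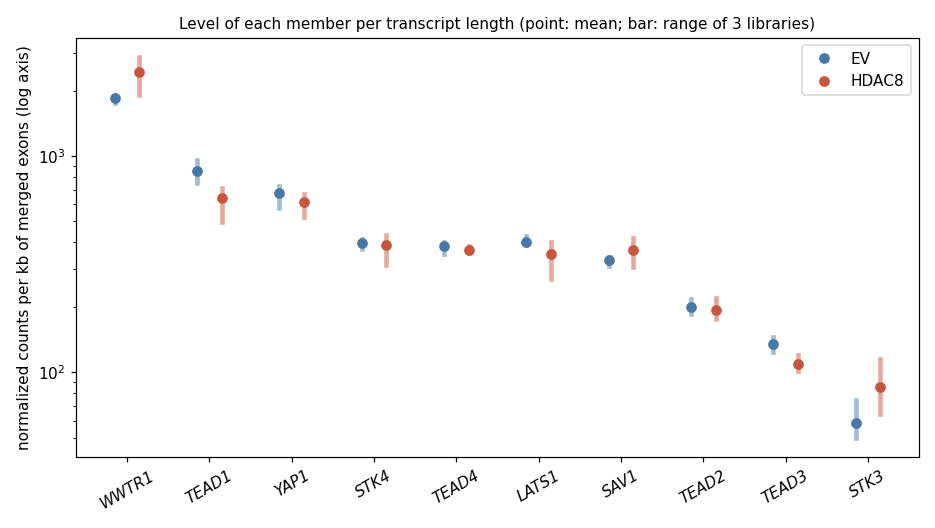
Normalized counts per kilobase of merged exons for each member on a log axis, ordered by the mean over all libraries, as the mean (point) and range (bar) of 3 libraries in EV (blue) and HDAC8 (red). WWTR1 is highest at 1850 and 2450, and STK3 is lowest at 58.5 and 86.

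The genes whose pattern over the 6 libraries was most like that of a coactivator were found by the root mean square difference of log2 values, each centred on its own mean, among 14450 other genes averaging 50 normalized counts or more. For YAP1 these were NCAPG, ZC3H15 and ZNF121, at 0.025, 0.026 and 0.031. For WWTR1 they were MAGT1, PROS1 and CA5BP1, at 0.027, 0.044 and 0.051. MAGT1 had 5638.3, 5621.3 and 5262.5 normalized counts in EV and 5820.5, 8620.3 and 7350.4 in the libraries labelled HDAC8, and so shared with WWTR1 a first HDAC8 library near the EV level. A likeness over 6 libraries is a description and says nothing of a shared function.

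Other genes of the pathway were described from lists of 51 genes, of which 46 had an adjusted p. DESeq2 called 7 of them higher and 3 lower, beside 5.57% and 5.44% of all genes. Their median log2 fold change was 0.04, against -0.00 for all genes. The higher count was 3 without EV replicate 1 or without EV replicate 3, and 4 without HDAC8 replicate 1 or without HDAC8 replicate 3.

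Close to the kinases, MOB1B fell. MOB1A and MOB1B are paralogs that activate LATS kinases. MOB1B had 6365.0, 5001.2 and 5797.5 normalized counts in EV and 1737.5, 3508.7 and 2709.3 in the libraries labelled HDAC8. The groups were far apart, at a log2 fold change of -1.11 (SE of 0.22, DESeq2 adjusted p = 1.18e-05), and the gene stayed called without any 1 library. MOB1A had 5895.2, 5355.2 and 5934.4 in EV and 2817.5, 5155.6 and 4748.9 in the libraries labelled HDAC8, which was not called (log2 fold change -0.43, DESeq2 adjusted p = 0.152). NF2, which encodes merlin, an upstream activator of the pathway, had 5753.7, 7167.0 and 5640.8 against 9336.6, 8397.0 and 8329.4. All 3 libraries labelled HDAC8 were above EV and the adjusted p passed, but the size did not (log2 fold change 0.49, DESeq2 adjusted p = 0.0099). MOB1B was the 1 called gene among these 6 cassette partners, which also include LATS2, STK38 and STK38L.

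Of the 27 upstream kinases and scaffolds, 25 had an adjusted p, 6 were higher and 1 lower. Of the 3 angiomotins, which hold YAP and TAZ outside the nucleus, AMOTL2 and AMOTL1 were called higher. AMOTL2 rose from 175.1, 250.3 and 131.0 to 1745.2, 1417.4 and 1599.7 normalized counts (log2 fold change 3.10, DESeq2 adjusted p = 7.48e-28), and AMOTL2 is itself a YAP/TEAD target. AMOTL1 rose from 7929.5, 8873.3 and 8272.1 to 15964.4, 15400.1 and 16377.8 (log2 fold change 0.93, DESeq2 adjusted p = 3.64e-12). AMOT, their paralog, was not called (log2 fold change 0.16, DESeq2 adjusted p = 0.594). WWC1, which encodes the scaffold KIBRA, rose by a log2 fold change of 1.38 (DESeq2 adjusted p = 3.10e-05), and its relative WWC3 by 0.78 (DESeq2 adjusted p = 0.028). WWC2, the other relative, which like AMOT was named after its values were seen, had a log2 fold change of -0.44 (DESeq2 adjusted p = 0.0751). SCRIB, a polarity scaffold, rose by 0.72 (DESeq2 adjusted p = 0.0071) and MINK1, a kinase that can act on LATS, by 0.59 (DESeq2 adjusted p = 0.0333). RASSF2, which binds MST kinases, fell from 411.1, 343.7 and 415.7 to 136.0, 105.5 and 65.3 (log2 fold change -1.93, DESeq2 adjusted p = 6.43e-05). The calls of WWC3, SCRIB and MINK1 were lost in 5, 3 and 4 of the 6 fits that each left out 1 library, and those of AMOTL2, AMOTL1, WWC1 and RASSF2 in 0. In the fits that lost the call, the log2 fold change was 0.62 to 0.82 for WWC3, 0.40 to 0.68 for SCRIB and 0.37 to 0.63 for MINK1, with the lowest of SCRIB and MINK1 without HDAC8 replicate 1.

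Among 14 negative regulators of the kinases, WTIP rose and FGFR1OP2 fell, with a median of -0.15 over the list. WTIP, a LIM protein that restrains LATS, had a log2 fold change of 1.37 (DESeq2 adjusted p = 0.0115), and its call was lost in 4 of 6 fits that left out 1 library, at log2 fold changes of 1.22 to 1.40 (DESeq2 adjusted p = 0.0559 to 0.0682). FGFR1OP2, a part of the STRIPAK phosphatase complex that switches off MST kinases, had 1568.7, 1523.2 and 1574.2 normalized counts in EV and 877.3, 988.3 and 1019.3 in the libraries labelled HDAC8 (log2 fold change -0.69, DESeq2 adjusted p = 0.00379). Of the 4 VGLL cofactors, which compete with YAP and TAZ for TEADs, VGLL4 alone had an adjusted p and was not called (log2 fold change -0.14, DESeq2 adjusted p = 0.758). VGLL1 and VGLL2 had no count in any library.

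The pathway is commonly read from its target genes. In a 22-gene YAP/TEAD signature 11 genes were called higher and 0 lower, beside 5.57% and 5.44% of all genes. The median log2 fold change of the signature was 0.69, against -0.00 for all genes. The call of ANKRD1, which averaged 6.1 normalized counts in EV, was lost in 4 of the 6 fits that left out 1 library. Those of the other genes called were lost in 0. The other 11 genes were not called. Groups did not overlap for 13 of the 22, with the higher level in the libraries labelled HDAC8, and for 4 with the lower. Over all genes these shares were 13.8% and 15.2%. The 4 lower were TGFB2, CCDC80, RBMS3 and GADD45A, singled out after their values were seen. Their log2 fold changes were -2.25, -2.15, -0.72 and -0.40 (DESeq2 adjusted p = 0.284, 0.402, 0.0516 and 0.401). TGFB2 and CCDC80 averaged only 11.1 and 6.8 normalized counts in the libraries labelled HDAC8. CCN2 (CTGF) rose from 200.3, 294.2 and 256.1 to 3522.9, 3817.0 and 3801.5 normalized counts (log2 fold change 3.89, DESeq2 adjusted p = 2.06e-86). MYOF, NT5E, AXL and FOXF2 rose by log2 fold changes of 4.26, 2.97, 2.42 and 2.33 (DESeq2 adjusted p = 2.97e-53, 1.24e-50, 1.05e-11 and 0.00307). HDAC8 replicate 1 was the lowest library of its group for CCN2, NT5E and AXL, with 4236.9 normalized counts of NT5E against 5979.0 and 6435.7. That library was the highest of its group for FOXF2 and AMOTL2, and MYOF was lowest in HDAC8 replicate 3. For CCN2, MYOF, NT5E, AXL and FOXF2, HDAC8 replicate 1 was above every EV library. The list overlaps the upstream scaffolds in AMOTL2 and PTPN14 and the cassette in LATS2, and without these 3 genes 10 of 19 were higher and 0 lower. These counts are known from earlier work on these libraries and are no independent evidence of a direction. Whether targets and core differ as groups was not tested.

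**Figure D5:**
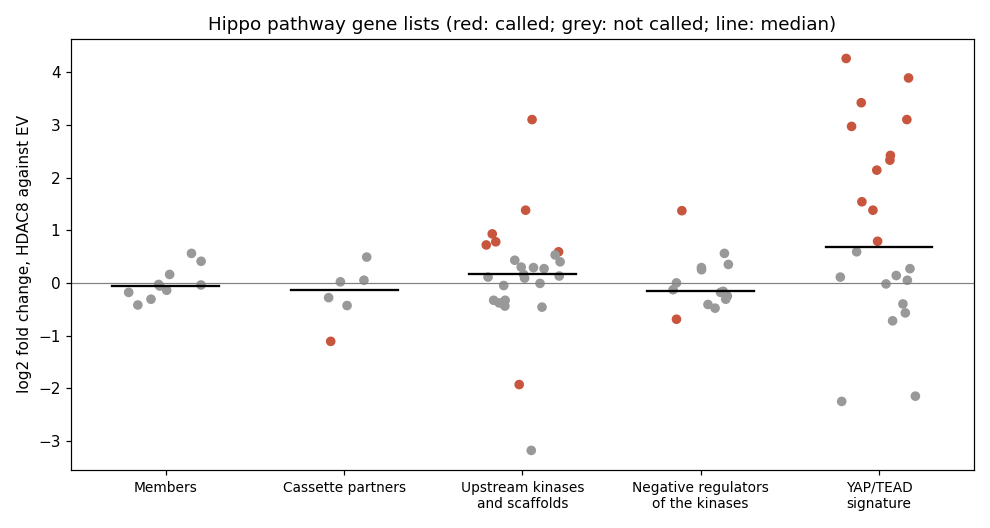
DESeq2 log2 fold change, libraries labelled HDAC8 against EV, of each gene with an adjusted p in 5 lists (red: called, grey: not called, line: median of the list). All 10 members are grey and lie between -0.42 and 0.56, while 11 of 22 signature genes are red and above 0.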

How the data were processed

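RNA-seq was measured in 6 libraries of WM164 cells, 3 with an empty vector and 3 with an HDAC8 expression vector, grouped by the treatment in the labels. Per the labels and the methods of the study, the authors used Trimmomatic to trim the read pairs, STAR to align them to the transcriptome and RSEM to count them. The deposited values are expected counts, unscaled between libraries, and the deposited table was used alone. The genome build, annotation release and strand setting are not given in the sources used here. For RNA extraction the labels name an Aurum kit and the methods a Direct-zol kit. An expected count shares a read among the genes it could come from: WWTR1 and LATS1 had fractional values in 5 libraries each, SAV1 in 6 and YAP1 in 1.

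Expected counts were rounded. The main comparison of both groups was a Wald test (two-sided) in DESeq2 1.42.0, run in R 4.3.3 without covariates on every gene whose counts summed to 10 or more. Size factors were those DESeq2 estimates and ran from 0.918 to 1.17. Benjamini-Hochberg adjustment ran over the genes that passed the filter of DESeq2 on low mean counts (independent filtering). Genes without an adjusted p were left out of counts. For fold changes, 95% intervals were formed from the standard error of DESeq2, without correction for multiple testing. The quasi-likelihood test of edgeR 4.0.16 was an alternative. Ratios used a pseudocount of 0.5 counts and an exact permutation test over libraries. Positions and lengths are those of GENCODE release 44 (GRCh38), joined by Ensembl identifier. Fits were tested on simulated data. No library was a copy of another: chi-square divided by its degrees of freedom was 25.99 to 153.4 within groups. HDAC8 replicate 1 gave 153.4 and 101.7 against replicates 2 and 3 of its group. HDAC8 replicates 2 and 3 gave 25.99, and the EV pairs gave 39 to 47.32.

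The members and lists were chosen with earlier results of these data known. Named genes are all members, LATS2, MOB1A, MOB1B, NF2, the called genes of each list (at most the 6 with the largest change and a mean of at least 50 normalized counts), and the 3 genes most like each coactivator. Planned protein comparisons were not made, and 1 marker gene is not reported here. Alternatives are listed after the report. Reads carry no molecular identifiers, so floors cover counting error only.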

Additional observations from a re-analysis of the deposited data

How the results depend on the processing

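The count of members called was 0 higher and 0 lower under all 13 alternatives: edgeR, a test against the fold change minimum, upper-quartile or total-count size factors, a minimum of 10 counts per library or no filter, a replicate block, and each library left out. Of 130 member values under these, none was called, 125 kept direction and 5 changed sign, all of genes near 0. The log2 fold change of TEAD2 became 0.00 with total-count size factors and ran from -0.13 to 0.03 as each library was left out. That of STK4 became 0.01 with total-count size factors and ran from -0.11 to 0.10 across the fits that left out a library. WWTR1 reached an adjusted p of 0.0263 with total-count size factors, at a log2 fold change of 0.44, and otherwise only without HDAC8 replicate 1.

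The TEAD2 to TEAD4 ratio difference ran from -0.08 to 0.07 across libraries left out. With the longest transcript 3 members kept their rank of level, and with the coding length 3. Against the fold change minimum, 1 other pathway gene was higher and 1 lower. Leaving out a library, 3 to 9 were higher, and 0 to 1 signature genes were lower. A minimum of 10 counts per library, no filter and upper-quartile size factors each called 1 signature gene lower. The cause was not tested, apart from the stricter test itself.

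No pairing by replicate number was seen: the deviations of libraries that share a number had correlations of -0.027, -0.066 and 0.04, and 0 of 6 libraries correlated best with its own number. With the replicate block 4 other pathway genes were higher and 4 lower, and 11 signature genes were higher. The intervals of TEAD3, the member with the fewest counts, and of STK3, whose libraries spread most, were the widest.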

Other observations

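A gene inside STK3 was higher in the libraries labelled HDAC8. KCNS2, a potassium channel subunit gene on the opposite strand within the STK3 locus, had 0, 2.8 and 0 normalized counts in EV and 35.9, 45.1 and 58.8 in the libraries labelled HDAC8. It was singled out after its values were seen. Counting by strand is not stated. These levels are small beside the 624.8 to 1467.6 normalized counts of STK3.

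CD3E, a T cell receptor subunit gene taken as a leukocyte marker, was at 0 throughout EV and had a mean of 73.3 ± 21.0 normalized counts (SD, n = 3) in those labelled HDAC8. PTPRC, also a leukocyte marker, was at or under the floor in all libraries.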
